A study of Drosophila melanogaster with 6 samples.

Results

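The pan-neuronal differentiation genes described here are 9 of the 17753 genes in the deposited tables for eye and antennal imaginal discs of Drosophila: elav, fne, Rbp9, onecut, scrt, futsch, Appl, Ank2 and nrv3. They were chosen by symbol, as genes switched on early in differentiating neurons, with earlier results of these data known. Each matched 1 FlyBase identifier. The eye disc group held 3 libraries and the antennal disc group 3 libraries, all of polyadenylated RNA from larvae of the third instar of the genotype yw;+;+, with 30 discs per library. The labels call the animals wild type and without a transgene. The discs are joined epithelial sacs that were parted by hand, so each library is a bulk sample of many cell types. In such samples a lower value can mean fewer neurons or less RNA per neuron, and these cannot be told apart.

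In the late larval eye disc a wave of differentiation, the morphogenetic furrow, moves forward across the epithelium, and cells behind it join ommatidial clusters and become photoreceptor neurons that send axons to the brain. The antennal disc at this stage holds mostly undifferentiated epithelium with sensory organ precursors and a small number of early neurons. Genes of the general neuronal programme are read in nearly every neuron whatever its type: RNA-binding proteins that set neuronal splicing and polyadenylation (elav, fne, Rbp9), transcription factors (onecut, scrt), and proteins of the axon and its membrane (futsch, Ank2, Appl, nrv3).

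Libraries held between 17583649 estimated counts (eye disc replicate 2) and 29093995. Genes that mark each tissue followed the labels: eya, so, ey, toy, Optix and dac summed to 1482 to 1670 CPM (counts per 1e6 estimated counts, scaled by TMM) in eye discs and to 189 to 269 CPM in antennal discs, while Dll, ss, disco, disco-r, btd and hth summed to 406 to 440.7 CPM in eye discs, against 1536 to 1668 CPM in antennal discs. One library stood apart. Genes of salivary gland, fat body and trachea, a list of 11, summed to 98157 CPM in eye disc replicate 2, to 5875 and 9036 CPM in the other eye disc libraries and to between 4012 and 5648 CPM in the antennal disc libraries. With that library left out, all 9 pan-neuronal genes were called in the test described below. None of these 11 genes was called between the tissues by the edgeR quasi-likelihood test, 1 had an unadjusted p under 0.05, and DESeq2 called 1.

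All 9 pan-neuronal genes were at a higher level in every eye disc library than in any antennal disc library, and 8 of them passed the test. A gene was called at a Benjamini-Hochberg adjusted p under 0.05 in edgeR's quasi-likelihood test over 9901 genes. By that rule 14.6% of all tested genes lay higher in eye discs, while 26.4% were called in either direction, and 23.4% had library ranges apart with eye disc higher. The 9 genes had a median log2 fold change, eye disc over antennal disc, of 3.84, beside 0.0046 over all tested genes. Of the 8 called genes, 7 were at least 4-fold higher in eye discs, as 6.16% of tested genes were. Because the genes were chosen with earlier results known, these contrasts are a description and no independent test. Summed over the 9 genes, the eye disc libraries held 1554, 1311 and 2058 CPM and the antennal disc libraries 124, 113 and 130 CPM, a 13.4-fold difference of the means. All 9 passed the filter on low counts, and apart from Ank2 each had at least 67 estimated counts in every antennal disc library.

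**Figure D1:**
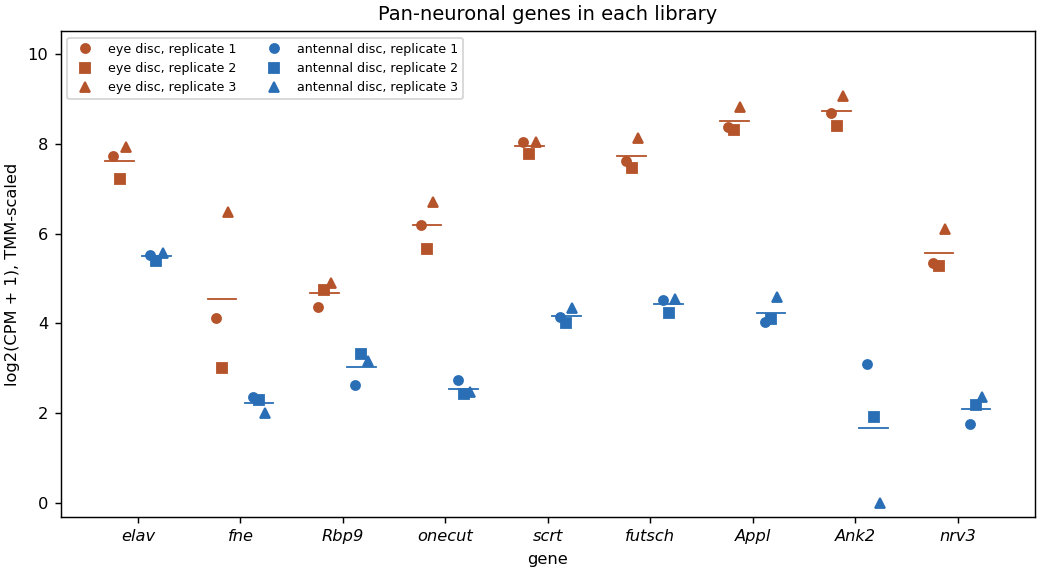
Level of the 9 pan-neuronal genes as log2(CPM + 1) in each of 3 eye disc libraries (orange, left of each pair) and 3 antennal disc libraries (blue), with symbols for replicates and a line at the mean. For every gene the eye disc points lie above the antennal disc points, and eye disc replicate 3 is the highest point for each gene.

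The genes differ in their position in the genome (dm6 coordinates, counted from 1). elav (FBgn0260400) lies on X from 509235 to 523226 on the minus strand, and Appl (FBgn0000108) begins 7274 bases beyond it and runs to 579044 on the plus strand. futsch (FBgn0259108, 1409069 to 1453686) and fne (FBgn0086675, 12917477 to 12950417) are also on X, both on the plus strand, so that 4 of the 9 are X-linked, where 16.4% of tested protein-coding genes are. Rbp9 (FBgn0010263, 2954762 to 2968434) and nrv3 (FBgn0032946, 21380000 to 21393319) are on 2L, both on the plus strand. scrt (FBgn0004880, 3983896 to 3994003, plus strand) and Ank2 (FBgn0261788, 7655389 to 7718395, minus strand) are on 3L, and onecut (FBgn0028996, 598555 to 607649, minus strand) is on chromosome 4.

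A feature that the choice by symbol did not use was the length of the annotated transcripts. The longest annotated 3′ untranslated region of the 9 genes ranged from 2549 bases (onecut) to 8557 bases (elav), with a median of 4670 bases, against a median of 317 bases over 9342 tested protein-coding genes. Only 4.85% of those genes have one as long as the shortest of the 9. The gene spans, introns included, ran from 9095 to 63007 bases, all above the median of 2953 bases. Ank2 has 22 annotated transcripts and fne 11, while onecut and scrt have 2 each.

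The ELAV family genes elav and Rbp9 had the smallest log2 fold changes of the members. The third, fne, came next at 3.34 ± 1.04 but was not set apart from futsch at 3.39 ± 0.21. The order of fne and futsch changed with the library left out. Relative to its mean, fne had the largest spread between eye disc libraries. elav, the founding member and the standard antigen for neuronal nuclei in flies, was at 209, 147 and 241 CPM in eye disc replicates 1, 2 and 3, against 45.3, 40.7 and 46.1 CPM in the antennal disc replicates. Every eye disc library was above every antennal disc library, and the antennal level was nearly the same in all 3. The means were 199 ± 47.5 CPM in eye discs, against 44.0 ± 2.92 CPM in antennal discs (SD, n = 3 each), a log2 fold change of 2.18 ± 0.19 (SE; edgeR adjusted p = 0.00063).

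Rbp9, a family member of neurons that also acts in the ovary, was at 19.6, 25.9 and 29.0 CPM in eye discs, against 5.19, 8.99 and 7.90 CPM in antennal discs. The groups did not overlap, and the log2 fold change of 1.75 ± 0.24 (edgeR adjusted p = 0.00368) was the smallest of the 9. Rbp9 shares 142 bases of its span with Ts on the opposite strand. Ts was at 35.9 ± 0.941 CPM in eye discs, against 45.8 ± 4.41 CPM in antennal discs, more than Rbp9 itself and in the opposite direction (log2 fold change -0.35). Rbp9 and Ts together gave a log2 fold change of 0.19 and no call (adjusted p = 0.241).

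fne (found in neurons), the third paralog, was at 16.4, 7.09 and 88.5 CPM in eye discs, against 4.15, 3.88 and 3.03 CPM in antennal discs. The tissues did not overlap, but eye disc replicate 3 alone held most of the eye disc signal and was 5.40-fold above replicate 1. The log2 fold change of 3.34 ± 1.04 did not pass (edgeR adjusted p = 0.0735). Without eye disc replicate 3 it was 1.66 and passed (adjusted p = 0.0308), and without eye disc replicate 2 it was 3.84 and passed (adjusted p = 0.0324). DESeq2 called it on all libraries (adjusted p = 0.00441). The simulated counts described below used edgeR's dispersions and far fewer changed genes than were called here. In them 19.6% of DESeq2 calls were false, against 4.64% of edgeR quasi-likelihood calls. Such shares depend on how many genes differ, so they cannot be carried over to the fne call.

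The make-up of the family within a library does not depend on scaling between libraries. elav made up 85.3%, 81.7% and 67.2% of the summed estimated counts of the 3 paralogs in eye disc replicates 1, 2 and 3, and 82.9%, 76.0% and 80.9% in antennal disc replicates 1, 2 and 3. The fne share was 6.68%, 3.91% and 24.7% in eye discs and 7.60%, 7.26% and 5.29% in antennal discs, so that eye disc replicate 3 was the only one of the 6 libraries in which the fne share exceeded that of Rbp9. Mean shares of elav were 78.1% ± 9.60 in eye discs and 79.9% ± 3.57 in antennal discs (SD, n = 3 each, exact two-sided permutation test, p = 0.9). The exact test gave p = 0.9 for the fne share, 11.8% ± 11.3 in eye discs against 6.71% ± 1.25 in antennal discs (n = 3 each), and p = 0.3 for the Rbp9 share, 10.1% ± 3.64 in eye discs against 13.4% ± 3.66 in antennal discs, where 0.1 is the smallest p that 3 against 3 allows. Within replicate numbers the Rbp9 share was lower in eye discs in 3 of 3 pairs, with differences of -1.53, -2.45 and -5.76 percentage points (n = 3 pairs, exact two-sided paired permutation test, p = 0.25, the smallest that 3 pairs allow). Exact 95% binomial intervals of these shares were at most 4.24 percentage points wide and cover counting error only.

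**Figure D2:**
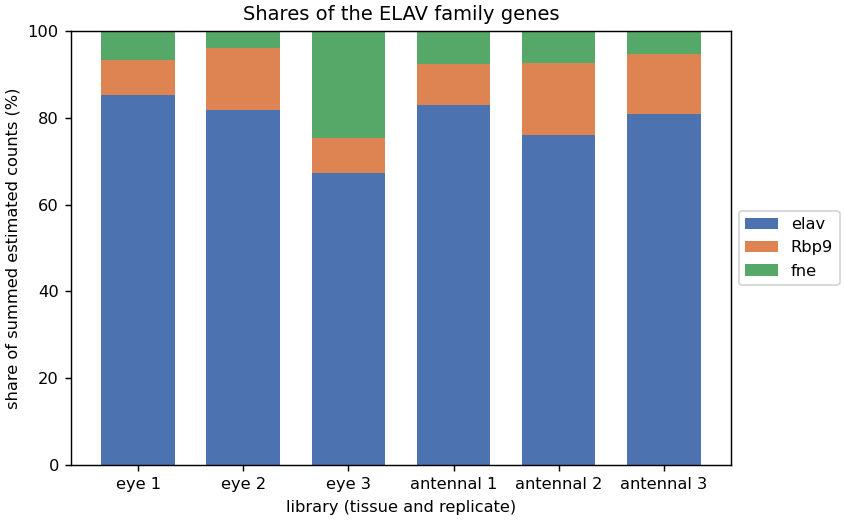
Share (%) of elav, Rbp9 and fne in the summed estimated counts of the 3 paralogs, 1 bar per library, eye disc libraries left of antennal disc libraries. elav holds 67.2% to 85.3% in eye discs and 76.0% to 82.9% in antennal discs, and fne reaches 24.7% in eye disc replicate 3.

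Both transcription factors differed by about the same amount. scrt, a zinc finger factor of the Snail superfamily that promotes neuronal fate, was at 262, 216 and 262 CPM in eye discs, against 16.7, 15.2 and 19.4 CPM in antennal discs. It had the least spread between eye disc libraries of the 9 genes, and its log2 fold change of 3.85 ± 0.13 had the smallest adjusted p among them (edgeR adjusted p = 1.91e-05). onecut, a CUT homeobox factor of differentiating neurons, was at 72.1, 49.6 and 103 CPM in eye discs, against 5.66, 4.38 and 4.6 CPM in antennal discs. The ranges lay far apart although the eye disc libraries varied among themselves, with replicate 3 at 2.08 times replicate 2 (log2 fold change 3.94 ± 0.31, adjusted p = 0.000517 in the same test).

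Of the cytoskeletal members, futsch encodes the MAP1B-like microtubule protein recognised by the neuronal antibody 22C10 and Ank2 the neuronal ankyrin of axons and synapses. futsch was at 195, 175 and 278 CPM in eye discs, against 22.0, 17.7 and 22.3 CPM in antennal discs, without overlap (log2 fold change 3.39 ± 0.21, edgeR adjusted p = 0.000209). Ank2 was at 408, 337 and 536 CPM in eye discs, the highest mean CPM of the 9 genes at 427 ± 101 CPM (SD, n = 3). In antennal discs it was at 7.56, 2.77 and 0 CPM, from 211, 83 and 0 estimated counts, where 3 counts would be 0.117 CPM in replicate 3. The log2 fold change of 6.94 ± 1.16 was the largest of the 9 genes counted alone (edgeR adjusted p = 0.013), and the call was lost without antennal disc replicate 2 (6.80, adjusted p = 0.0605).

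The antennal values of Ank2 cannot be taken apart from those of CG32373, whose span on the opposite strand covers all 63007 bases of Ank2. CG32373 was at 25.1, 30.6 and 45.2 CPM in eye discs, against 29.0, 31.2 and 46.2 CPM in antennal discs. It was highest in replicate 3 of each tissue, where Ank2 was at its highest in eye discs and at 0 in antennal discs. Summed, the locus gave 433, 368 and 581 CPM in eye discs, against 36.5, 34.0 and 46.2 CPM in antennal discs, with no library near 0. The summed log2 fold change was 3.57 ± 0.22 (edgeR adjusted p = 0.000202), which lies among those of the other members and is far below the value for Ank2 counted alone. elav is covered over 98.6% of its span by arg, also on the opposite strand, at 14.6 ± 3.8 CPM in eye discs, against 7.18 ± 1.09 CPM in antennal discs. Here the sum changed little, at 2.06 ± 0.19 (adjusted p = 0.000811). fne, onecut, scrt and nrv3 overlap no other gene of the tables, and the sums for futsch and Appl did not move their values.

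The membrane proteins showed the same direction. Appl, the fly homologue of the amyloid precursor protein and a transmembrane protein of neurons, was at 332, 315 and 453 CPM in eye discs, against 15.4, 16.2 and 23.0 CPM in antennal discs. Its log2 fold change of 4.33 ± 0.23 was the second largest (edgeR adjusted p = 0.000129). nrv3, a beta subunit of the sodium pump found in neurons, was at 39.7, 37.5 and 67.3 CPM in eye discs, against 2.40, 3.54 and 4.18 CPM in antennal discs, a log2 fold change of 3.84 ± 0.33 (adjusted p = 0.000708 in the same test).

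**Figure D3:**
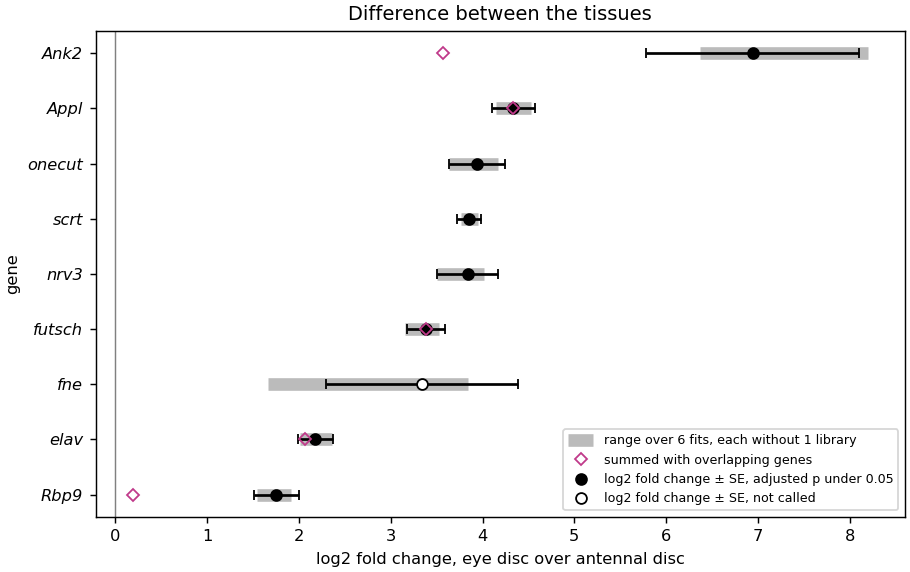
Log2 fold change (eye disc over antennal disc) of the 9 genes with its SE, filled where the edgeR quasi-likelihood test called the gene, over a grey bar for the range of 6 fits that each left out 1 library. Open diamonds give the values after summing with overlapping genes, which are 3.57 for Ank2, 2.06 for elav and 0.19 for Rbp9, while those of futsch and Appl fall on the main points.

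Ordered by log2 fold change the genes ran Ank2, Appl, onecut, scrt, nrv3, futsch, fne, elav and Rbp9, with Ank2 counted alone. With the Ank2 locus sum of 3.57 in its place, Ank2 stood between nrv3 (3.84) and futsch (3.39), below Appl, onecut and scrt. The ratio of each gene to the next was taken within a library on log2 CPM and compared between tissues over 8 such pairs. The size of the gap between Ank2 and Appl is not given, since it rests on an antennal disc library with 0 counts of Ank2. Of the other 7 pairs, the library ranges were apart for nrv3 against futsch, by 0.43 log2 units, and overlapped for 6. For nrv3 against futsch the exact two-sided permutation p was 0.1, the smallest that 3 against 3 allows, and 0.4 after adjustment over the 8, so no pair could pass a test at this size.

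The order of levels was not the same in the tissues. Per kilobase of merged exons, Appl was the highest in eye discs at 57.4 ± 11.8 CPM per kb, then scrt at 27.2 ± 2.95 and elav at 18.6 ± 4.44 (SD, n = 3). The eye disc ranges of these 3 were apart, but neighbours further down overlapped: onecut (11.1 CPM per kb), nrv3 (10.1), futsch (9.27), Ank2 (9.09), fne (3.90) and Rbp9 (3.08). In antennal discs elav was the highest at 4.11 ± 0.273 CPM per kb, above Appl at 2.85 ± 0.65 and scrt at 1.88 ± 0.234, with all 3 ranges apart. Rbp9, futsch, onecut and nrv3 followed at 0.914 to 0.707 CPM per kb without separation, and fne (0.386) was below them. Ank2 counted alone was at 0.0733, but its place in the antennal order is uncertain because its counts cannot be taken apart from those of CG32373. The deposited TPM divide by whole gene spans and so place genes with long introns lower: Appl, whose exons fill 13.1% of its span, had a mean of 15.8 TPM in eye discs, below scrt at 51.7 TPM. On that scale elav (30.6 TPM) and onecut (18.1 TPM) were also above Appl in eye discs. The order of levels thus depends on the scale, and which scale is nearer to the true order was not tested.

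The pan-neuronal genes nrv3 and Ank2 stood beside relatives that are also made outside neurons and had smaller log2 fold changes. This did not hold for every relative of a member: CG12605 (4.89), grouped with scrt (3.85), had a larger one. Among sodium pump genes, nrv2, a beta subunit of glia and epithelia, was at 272 ± 8.42 CPM in eye discs, against 200 ± 12.6 CPM in antennal discs (log2 fold change 0.44), the alpha subunit Atpalpha also differed by 0.44, and nrv1, at 107 ± 5.73 against 100.3 ± 8.89 CPM, was not called (0.09). These were the 3 tested genes of a list of 8 pump genes, of which 4 had fewer than 3 counts in every library. Ank, the ankyrin of most cells, was at 355 ± 7.95 CPM in eye discs, against 357 ± 17.2 CPM in antennal discs (log2 fold change -0.01, edgeR adjusted p = 0.948), beside 6.94 for Ank2 alone and 3.57 for the Ank2 locus. Whether the change of a neuronal gene differs from that of its relative was not tested.

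**Figure D4:**
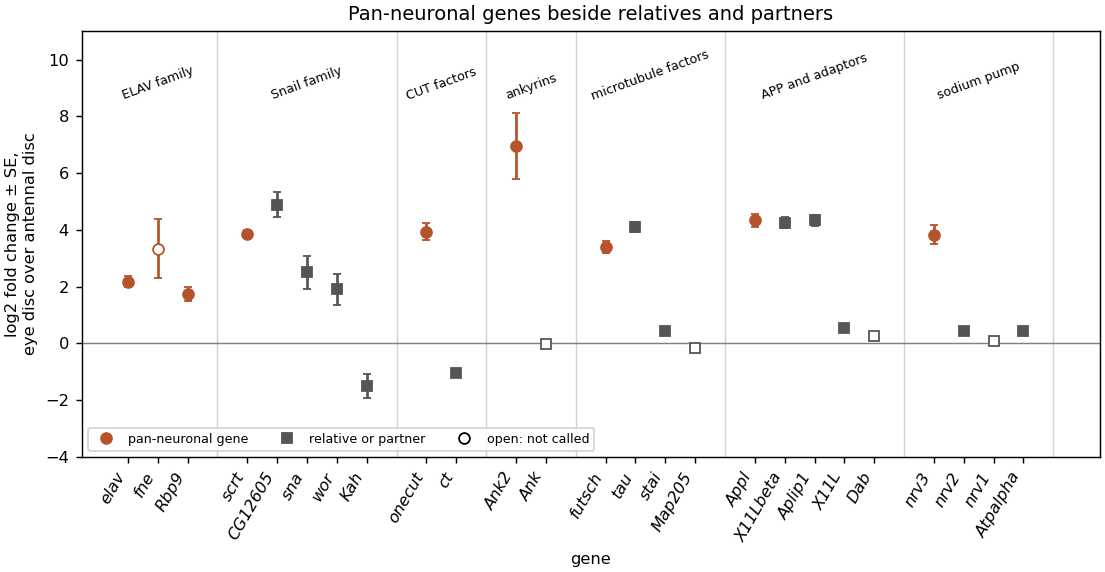
Log2 fold change ± SE (eye disc over antennal disc) of the pan-neuronal genes (circles) and of relatives or partners from the gene lists (squares), filled where called. CG12605, tau, X11Lbeta and Aplip1 lie above 4, while Ank, Map205, Dab and nrv1 are near 0 and not called, and ct and Kah lie below 0.

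Of 18 genes of the axonal and spectrin-ankyrin cytoskeleton, 12 lay higher in eye discs, while 6 were not called, with a median log2 fold change of 0.36. In a limma fit on log2(TPM + 1) 3 of them were called. The log2 fold changes of 3 called genes were above 2, and those of the other 9 were at most 0.66. tau, a microtubule-binding protein of axons, was at 49.3 ± 8.19 CPM in eye discs, against 2.87 ± 0.478 CPM in antennal discs (4.10). hiw, a ubiquitin ligase that limits synaptic growth, differed by 3.41, and unc-104, the kinesin that carries synaptic vesicle precursors, by 2.45. kst, the heavy beta spectrin of epithelia, was the fourth at 0.66.

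Of 9 tested genes of APP processing and its adaptors, 4 lay higher in eye discs, while 5 were not called (median log2 fold change 0.25), and limma on log2(TPM + 1) called 2. The adaptors Aplip1, a JIP1-like scaffold, and X11Lbeta, a Mint-like protein, were at 56.7 ± 9.39 and 160 ± 24.3 CPM in eye discs, against 2.82 ± 0.458 and 8.40 ± 1.78 CPM in antennal discs, with log2 fold changes of 4.33 and 4.25 beside 4.33 for Appl itself. X11L (0.55) and the gamma-secretase subunit Psn (0.25) were the other 2, while the alpha-secretase kuz was at 205 ± 19.2 against 193 ± 17.7 CPM and was not called.

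Other RNA-binding genes were called about as often as all tested genes, of which 14.6% were higher in eye discs and 11.7% in antennal discs. Of 15 listed, 3 lay higher in eye discs, 2 in antennal discs and 10 were not called, with a median log2 fold change of -0.05. On log2(TPM + 1) limma called 0 and 1. The 3 were bru1 (1.09), ewg (0.57), whose transcript is a known splicing target of ELAV although the protein is a transcription factor, and mub (0.40). Imp, an mRNA-binding protein of growing tissue, was lower in eye discs, at 52.4 ± 7.86 CPM, against 111 ± 4.39 CPM in antennal discs (log2 fold change -1.09, edgeR adjusted p = 0.00102), and Fmr1, which represses futsch translation, differed by -0.21. Sxl, which shares the RNA-recognition motif type with ELAV and directs sex determination, was not called at 262 ± 15.6 against 231 ± 13.1 CPM.

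Listed factors of the Snail family, of the CUT homeobox type or otherwise tied to neuronal fate were called in both directions. This list is wider than the relatives of scrt and onecut. However, without any 1 antennal disc library 3 were higher in eye discs and 1 in antennal discs. Of 9 tested, 6 were higher in eye discs and 3 in antennal discs (median log2 fold change 1.90). The zinc finger gene CG12605 was at 17.7 ± 7.36 CPM in eye discs, against 0.591 ± 0.223 CPM in antennal discs (4.89), and nerfin-1, a zinc finger factor that keeps neurons differentiated, at 93.5 ± 35.3 against 6.48 ± 0.948 CPM (3.85). pros, a homeobox factor of R7 and cone cells and of many neurons, differed by 3.04, and sna by 2.50 at low level. ct, like onecut a CUT homeobox factor, was higher in antennal discs (-1.05), as were Kah (-1.50) and ttk (-0.31), a repressor of neuronal fate.

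Proneural and precursor genes act before the 9 genes. Of 12 tested proneural and precursor genes, 7 were not called and 5 lay higher in eye discs (median log2 fold change 0.23). The 5 were wor (1.90), neur (1.56), mira (1.01), ato (0.37) and sens (0.28). The wor call, at 4.27 ± 2.23 CPM in eye discs, against 1.14 ± 0.452 CPM in antennal discs, had an adjusted p of 0.0479 (edgeR), and with the replicate number as a block the list had 3 genes higher in eye discs and 1 in antennal discs. Without 1 library the first count was 1 to 5. Of the photoreceptor genes, 14 of 14 tested lay higher in eye discs, with a median of 2.85, led by gl (4.48), Pph13 (4.35), sev (4.30) and ro (3.68). In antennal discs gl, Pph13, sev and ro had means of 12.0, 0.171, 19.1 and 2.72 CPM, against 268, 3.55, 376 and 34.9 CPM in eye discs. Whether eye disc RNA was part of the antennal values of these genes and of the 9 genes was not tested.

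Of 20 synapse, transmitter and channel genes of mature neurons, 13 were higher in eye discs by the edgeR test and 7 were not called (median log2 fold change 2.89). brp, the active zone scaffold, was at 140, 103.8 and 185 CPM in eye discs, against 6.45, 5.15 and 7.78 CPM in antennal discs (4.47), and the sodium channel gene para at 16.2, 12.5 and 28.4 CPM against 1.11, 0.936 and 1.65 CPM (3.95). The receptor subunit gene nAChRalpha1 differed by 3.90 at low level. The transporter gene VAChT, whose span lies wholly inside that of other genes, was called at 4.19, 1.15 and 10.8 CPM against 0, 0 and 0.0767 CPM. The syntaxin gene Syx1A was at 37.2 ± 4.18 against 40.4 ± 4.41 CPM and Csp at 165 ± 4.27 against 184 ± 6.86 CPM, and neither was called.

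The spread between the eye disc libraries was shared by the members. Eye disc replicate 3 was the highest of the 3 eye disc libraries for 9 of 9 pan-neuronal genes, and replicate 2 the lowest for 8 of 9. Over all tested genes replicate 3 was the highest for 32.6% and replicate 2 the lowest for 38.1%. The ratio of replicate 3 to replicate 1 had a median of 1.42 over the 9 genes, from 1.00 for scrt to 5.40 for fne, beside 0.991 over all tested genes. In antennal discs no library led in this way, with replicates 1, 2 and 3 the highest for 3, 1 and 5 of the genes.

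Mature neuron genes shared this order of libraries, while photoreceptor genes mostly did not (the difference was not tested). Eye disc replicate 3 was the highest eye disc library for 19 of 20 mature neuron genes, with a median ratio to replicate 1 of 1.70, but for 5 of 14 photoreceptor genes, with a median ratio of 0.955. The list of 20 summed to 1120, 959 and 1490 CPM in eye disc replicates 1, 2 and 3 and to 582 to 652 CPM in antennal discs, and VAChT was at 0 in 2 antennal disc libraries. VGlut, Gad1 and Hdc were picked out after their values were seen. The glutamate transporter gene VGlut was at 3.89, 0.958 and 21.4 CPM in eye discs against 0.824, 0.768 and 0.575 CPM in antennal discs, and Gad1, of GABA synthesis, at 0.495, 0.192 and 4.82 CPM against 0.179, 0.535 and 0.307 CPM. Hdc, which makes the photoreceptor transmitter histamine, was the gene in which replicate 3 was not highest, at 3.12, 1.28 and 0.880 CPM in eye disc replicates 1, 2 and 3, against 2.61, 1.04 and 1.07 CPM in antennal discs. The part of these other neuronal transcripts in the levels of the 9 genes was not tested beyond leaving replicate 3 out. Without it the log2 fold changes were 2.01 for elav, 1.61 for Rbp9, 3.63 for onecut, 3.797 for scrt, 3.15 for futsch, 4.14 for Appl, 6.73 for Ank2 and 3.50 for nrv3, and all 9 genes were called. The median of the mature neuron list was 1.77 without that library, against 2.89 with it.

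**Figure D5:**
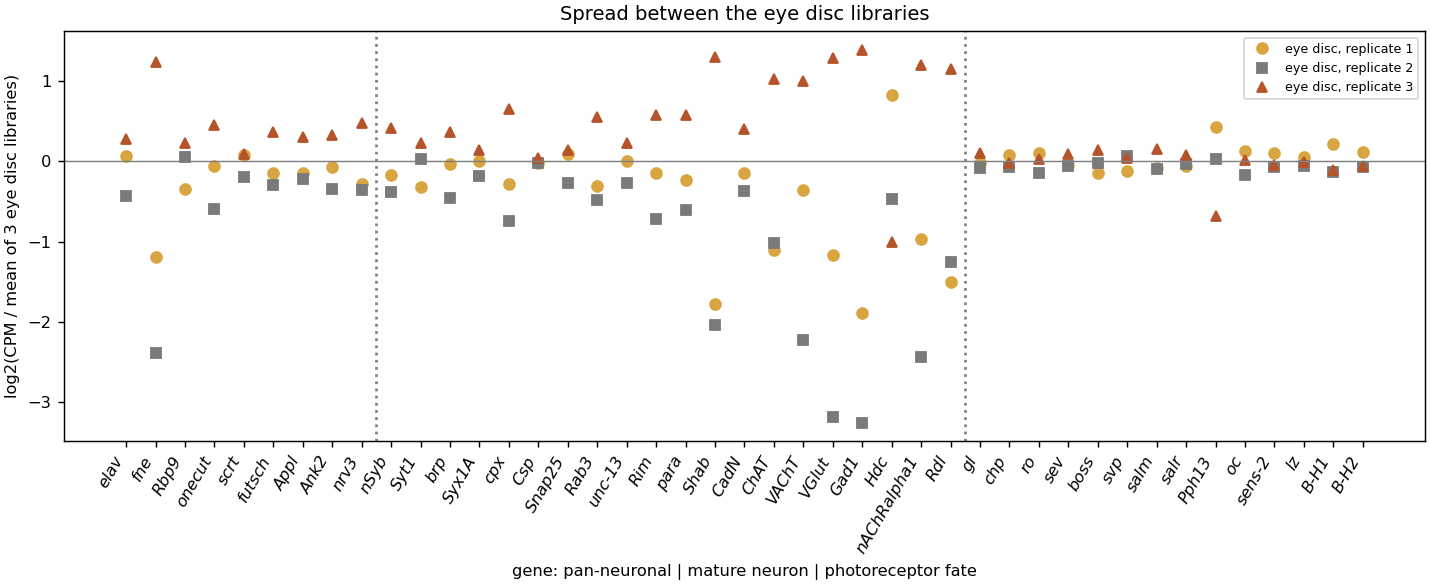
Log2 ratio of each eye disc library to the mean of the 3 for the 9 pan-neuronal genes, the 20 mature neuron genes and the 14 tested photoreceptor genes, separated by dotted lines. Replicate 3 (triangles) is the highest for all 9 pan-neuronal genes and 19 of 20 mature neuron genes, and the photoreceptor genes other than Pph13 lie within 0.5 of 0.

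Markers of other cell types also differed between the tissues. Of 13 glial markers, 9 lay higher in eye discs, while 4 were not called (median log2 fold change 1.30), led by moody (4.203), gcm2 (3.95), gcm (3.55) and repo (3.26), and the list summed to 1238 to 1465 CPM in eye discs, against 736 to 815 CPM in antennal discs. The moody span is wholly covered by other genes, and nrv2 of the pump list is also in the glial list. Of 12 hemocyte markers, 10 were higher in eye discs (median 0.92), with sums of 1776 to 1980 CPM against 879 to 956 CPM, and limma on log2(TPM + 1) called 4. The hemocyte genes with the largest log2 fold changes were in other lists too: gcm (3.55) with the glia and lz (2.67) with the photoreceptor genes. Of 11 muscle markers, 3 were higher in antennal discs (twi at -3.63, Mhc at -2.04 and bt at -1.57), sls was higher in eye discs (0.62) and 7 were not called, while limma on log2(TPM + 1) called 9 higher in antennal discs. Salivary gland, glial, hemocyte and muscle lists had RNA in every library, and their part in the values of the 9 genes was not tested.

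The genes whose profile over the 6 libraries was most like that of the 9 were found as the smallest root-mean-square distance between centred log2 CPM and the median centred profile of the 9. They were CG3556, kek2, RhoGAP100F, Nrx-1 and Rab3-GEF, at distances of 0.09, 0.10, 0.15, 0.15 and 0.17 log2 units. futsch, the member nearest to the shared profile, was at 0.15, while Rbp9 and fne were at 0.97 and 0.93 and Ank2 at 3.21. Nrx-1 was at 21.9, 16.0 and 33.9 CPM in eye discs, against 2.44, 2.00 and 2.38 CPM in antennal discs, and kek2 at 13.9, 11.4 and 21.7 CPM against 1.36, 1.14 and 1.26 CPM. Their order of eye disc libraries, that of most of the members, follows from the choice by likeness and is no separate result. The span of CG3556 lies wholly inside other genes.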

How the data were processed

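Estimated counts and TPM per gene were deposited by the authors for 6 libraries, with kallisto's columns per the file headers. Kallisto, FastQC, bedtools and dm6 are named in the submitters' processing notes, while no version, strand setting or annotation release was found in these sources. Libraries were made with a stranded mRNA kit per the labels' protocols, from samples called biological replicates. The listed length equals the whole gene span for 99.3% of multi-exon genes and all 9 members, so reads of overlapping spans can be shared out between genes. TPM deposited by the authors divide by these spans.

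Estimated counts were rounded, filtered with filterByExpr, scaled by TMM and tested by robust quasi-likelihood in edgeR 4.0.16 (R 4.3.3) over 9901 genes with Benjamini-Hochberg adjustment. The SE is the absolute log2 fold change divided by the square root of F. CPM are TMM-scaled, and log2 CPM use a prior count of 2. Alternatives used DESeq2 1.42.0 and limma 3.58.1, the latter on log2(TPM + 1) and log2(TPM + 0.1). Shares used scipy 1.17.1, tables pandas 2.3.3 and plots matplotlib 3.10.9 in Python 3.11.15. Spans, exons and symbols came from an Ensembl annotation on dm6 coordinates, which matched 17622 of 17753 identifiers. The scripts were tested on counts simulated with edgeR's dispersions for these data, where 19.6% of DESeq2 calls and 4.64% of edgeR quasi-likelihood calls were false. Far fewer genes were changed in the simulation than were called in the data, so these shares do not carry over to the real calls.

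Eye and antennal samples with one replicate number shared their deviations from group means (correlation across genes 0.415, 0.308 and 0.242 for numbers 1, 2 and 3). For unlike numbers the correlations ran from -0.43 to 0.08. The numbers were taken to pair the samples in the block fit and the paired permutation tests, from this check and not from the labels. With 3 libraries per tissue the check is a description and does not establish the pairing, which was not tested. The main edgeR test and the unpaired permutation tests left the numbers out. Replicates of a tissue differed beyond sampling noise (chi-square per degree of freedom 16.2 to 356), so none was counted as a copy. The members and gene lists were chosen with earlier results of these data known, and lz, gcm, nrv2 and wor are each in more than 1 list. Genes named are the members, up to 4 called genes of a list by size of change, all called genes of a list where 5 or fewer, genes overlapping a member and the 5 with the most similar profile. The uncalled relatives, VGlut, Gad1, Hdc, Sxl, kuz, Syx1A and Csp were named after their values were seen. 3 listed genes were not analysed here. The region tables were not used.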

Additional observations from a re-analysis of the deposited data

How the results depend on the processing

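The 9 genes were higher in eye discs under all alternatives, and 7 to 9 of them were called. fne was called with DESeq2 (3.34) and with limma on log2(TPM + 0.1) (2.06), but not with limma on log2(TPM + 1) (1.13, limma adjusted p = 0.516). On log2(TPM + 1) every member had a smaller log2 fold change than in the main fit, from 1.05 for Rbp9 to 3.68 for Ank2. The log2 fold change of fne ran from 1.66 to 3.84 when 1 library was left out. That of Ank2 ran from 6.37 to 8.20, and the call was lost at 6.80 without antennal disc replicate 2. Rbp9 fell to 0.19 when summed with Ts, a gene at a higher level and with the opposite direction that covers only 1.04% of the Rbp9 span. With the replicate number as a block 8 of the 9 were called, the same count, and 1614 and 1397 of all genes were higher in eye and antennal discs, against 1449 and 1161 without it. In that block fit fne was at 2.55 (edgeR adjusted p = 0.202) and Ank2 at 7.13 (edgeR adjusted p = 0.0471).

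All genes called higher in eye discs numbered 858 with limma on log2(TPM + 1) and 909 on log2(TPM + 0.1), and those higher in antennal discs 344 and 339; these fits moved the median of all genes by -0.18 and -0.20. Total counts alone gave 771 higher in antennal discs. Leaving out 1 library gave 919 to 1462 and 520 to 1117, lowest without antennal disc replicates 2 and 3. On both TPM scales the calls higher in eye discs were 0 for other RNA-binding genes, 3 for the cytoskeleton, 2 for APP genes, 0 for the pump, 2 for precursors, 4 for hemocytes, 0 for muscle and 3 for salivary gland, fat body and trachea, and those higher in antennal discs 1 for RNA-binding genes and 9 for muscle. Without a count filter RNA-binding genes had 1 call higher in antennal discs, and precursors had 2 and 1 in eye and antennal discs. Total counts gave precursors 1 and 1, and the replicate block 3 and 1. DESeq2 gave 1 call higher in antennal discs each for cytoskeleton, mature neuron and precursor genes, and 1 higher in eye discs for salivary gland, fat body and trachea. Leaving out 1 library, calls higher in eye discs were 1 to 4 for RNA-binding genes and 3 to 6 for the list of Snail, CUT and other neuronal factors. They were 2 to 4 for APP genes, 1 to 5 for precursors and 0 to 3 for salivary gland, fat body and trachea. Those higher in antennal discs were 1 to 2 for RNA-binding genes and 1 to 2 for the list of Snail, CUT and other neuronal factors. The elav share difference of -1.80 percentage points became 0.533 with TPM and ran from -5.42 to 3.64 without 1 library, and that of fne (5.05) from -1.42 to 8.97, both reversing without eye disc replicate 3. With the replicate number as a block, a test added after seeing the data, the exact p was 1.0, 1.0 and 0.25 for the shares of elav, fne and Rbp9, where 0.25 is the smallest that 3 pairs allow. The cause of these changes was not tested. Counts of 3 correspond to 0.103 to 0.171 CPM.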
